A study of Mus musculus with 83 samples.

Results

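The miR-183/miR-96/miR-182 cluster is a group of 3 miRNA genes, *Mir183*, *Mir96* and *Mir182*, that lie together on mouse chromosome 6 and were taken by name from 32101 features measured by small RNA-seq, of which 1573 are annotated as miRNAs. All 3 passed the filter on low values. The libraries come from mouse embryonic stem cells (ESCs) labelled E14 in which *Dnmt1*, the gene of the methyltransferase that copies DNA methylation after replication, was deleted through Cre recombinase. The *Dnmt1* alleles carry loxP sites in all of these cells, and the study induced Cre with tamoxifen. In its methods the ESCs with these alleles are of the strain C57BL/6, which the label E14 does not say, and the sources used here do not settle this. Control and *Dnmt1* KO cells were sampled on days 1, 3, 6, 9, 11 and 25, with 3 libraries in each of the 12 groups. In another 8 libraries RNA was pulled down with AGO2, an Argonaute protein that carries miRNAs, 4 from control and 4 from *Dnmt1* KO cells; the labels give no day, and the study describes a pull-down on day 9. There are also 2 libraries labelled "none", 1 per genotype, and 7 of primordial germ cells (PGCs) of the strain C57BL/6 from embryos of embryonic days E13.5 or E14.5, female (F) or male (M). In the methods of the study these embryos came from C57BL/6J matings in which the females carried an Oct4-GFP transgene, and GFP-positive cells were sorted. A further 30 libraries of days 1 to 11 carry the suffix R1, and the 3 of them that stand beside the *Dnmt1* KO libraries of day 11 are labelled WT rather than control. The labels do not explain the suffix or say if these libraries are separate samples. The labels do not say whether replicates came from separate cultures, so p-values measure the spread between libraries, which may be partly technical. The cluster was chosen by the day 1 level of *Mir183*, which in earlier results of these data was lower in *Dnmt1* KO cells than in controls, so the day 1 values are a description without a test.

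A miRNA gene is transcribed into a hairpin precursor that is cut down to a short mature strand, and that strand guides an Argonaute protein to messenger RNAs that pair with its seed, the bases 2 to 8 from the 5′ end. Neighbouring miRNA genes such as these can be cut from a single primary transcript, and each mature strand can still reach its own level through its own processing and decay. The cluster is known best from sensory organs, where it is expressed in hair cells of the inner ear and in photoreceptors, and changes in the seed of miR-96 cause hearing loss.

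The cluster spans 3820 bases of the minus strand at chr6:30115918-30119737 (NCBIM37). In the direction of transcription *Mir183* comes first (ENSMUSG00000065619.2, chr6:30119668-30119737), *Mir96* follows (ENSMUSG00000065586.1, chr6:30119446-30119551), and *Mir182* is last (ENSMUSG00000076361.1, chr6:30115918-30115992). No other feature of the table overlaps these intervals. The mature 5p strands are shown because the members share most of their 5′ ends and yet differ within the seed. They are written 5′ to 3′ as given by RefSeq (table of GRCm38.p6), with bases 2 to 8 in capitals.
miR-183-5p: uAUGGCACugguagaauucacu
miR-96-5p: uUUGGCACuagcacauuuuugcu
miR-182-5p: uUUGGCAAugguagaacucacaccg
The 5p strands match NCBIM37 at chr6:30119711-30119732, chr6:30119506-30119528 and chr6:30115962-30115986, in that order and each inside its own hairpin. Counted from 1 at the 5′ end, miR-183-5p differs from miR-96-5p in its first 8 bases by A2U, miR-96-5p differs from miR-182-5p by C8A, and miR-183-5p differs from miR-182-5p by both A2U and C8A. Thus all 3 seeds are different, although miR-96-5p and miR-182-5p share bases 2 to 7. Among 1679 mature mouse miRNAs in the RefSeq table, miR-1271-5p is the only other one with the seed of miR-96-5p, and none has the seed of miR-183-5p or of miR-182-5p. Over the 22 bases compared, miR-183-5p and miR-182-5p were identical at 18, whereas miR-183-5p and miR-96-5p were identical at 13. No hairpin of the cluster shares a stretch of 20 bases with another hairpin in the table, so reads of this length can be told apart by sequence. The mature miR-182-5p of 25 bases is longer than the reads of 20 to 24 bases that were kept for counting in the methods of the study. The other 5p strands have 22 and 23 bases. If the deposited values were counted in this way, those of *Mir182* come from shorter forms of this strand or reads of its 3p strand. Read lengths were not examined, and the table does not tell the arms of a hairpin apart.

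The total to which the values are scaled was 521066 to 6239008 reads in the 36 time course libraries, with the lowest 6 totals all on day 25. It was 1152390 to 25422953 reads in AGO2 libraries, 9830 and 57155 reads in the "none" libraries and 60317 to 3435993 reads in PGC libraries. The miRNA features held 52.87% to 60.68% of the total in the time course and 97.85% to 99.05% in AGO2 libraries. Reads over *Dnmt1* itself were few and overlapped between genotypes, at 23.1 to 95.02 RPM (reads per 1000000 of the total) in the 18 control and 18.1 to 64.3 RPM in the 18 *Dnmt1* KO libraries, so short reads over this gene do not check the deletion. All 12 members of a list of ESC miRNAs passed the filter, and their summed level was 111105 to 209785 RPM in controls and 110780 to 141633 RPM in *Dnmt1* KO cells of the time course.

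*Mir182* was the most abundant of the 3 members in every library of the time course and *Mir96* the least. Per kilobase of hairpin (RPKM), *Mir182* ranked first or second among the miRNA features in each of the 36 libraries, *Mir183* ranked 4 to 13, and *Mir96* ranked 59 to 108. On day 9 in controls, the RPKM of *Mir183* was 2 to the power −3.16 ± 0.06 (SD, n = 3) of that of *Mir182*, and that of *Mir96* was 2 to the power −8.98 ± 0.26. Together the 3 members held 17.3% ± 2.2 (SD, n = 3) of the total in day 1 controls, 21.4% ± 1.6 in day 11 controls and 11.8% ± 0.1 in day 25 controls. In *Dnmt1* KO cells they held 14.3% ± 1.0, 15.2% ± 0.2 and 8.92% ± 0.56 on the same days. The share was thus highest in controls on day 11 and lowest in *Dnmt1* KO cells on day 25, and *Mir182* alone gave most of it.

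**Figure D1:**
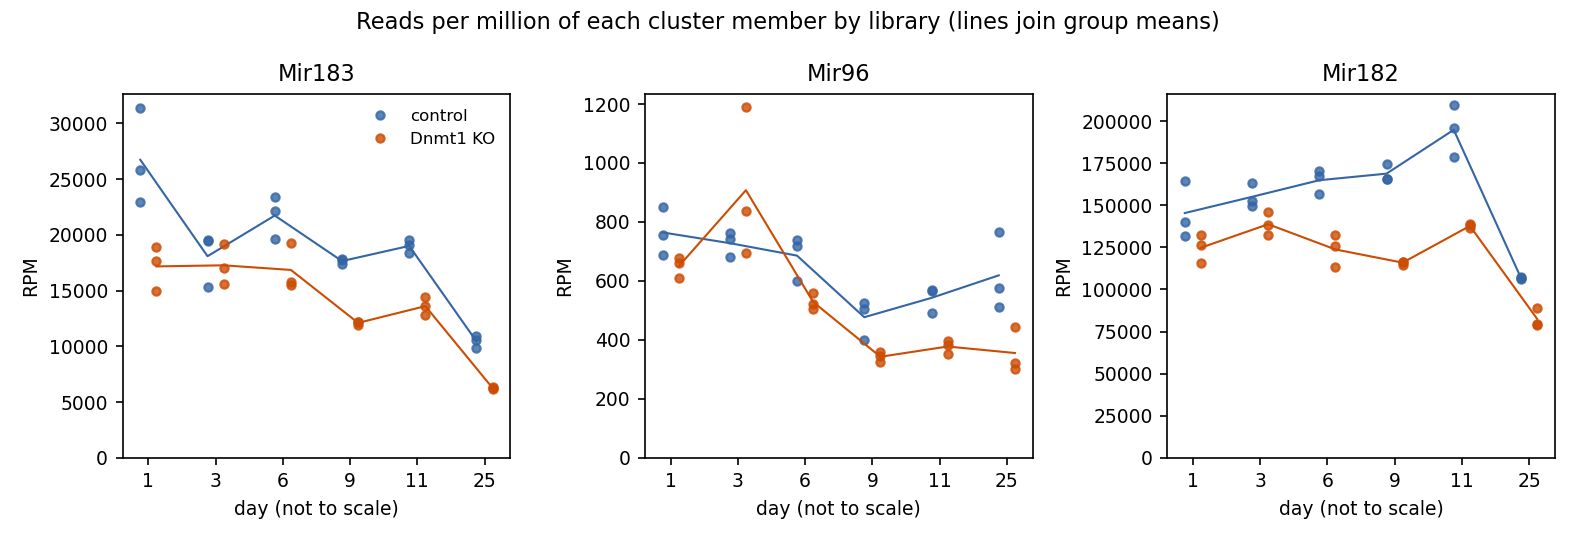
Level of each member in RPM (vertical axes, from 0) in each of the 36 time course libraries, by day (horizontal axes, evenly spaced) and genotype; points are libraries and lines join the means of 3. From day 6 onwards the points of *Dnmt1* KO cells lie below all control points of the same day for each member, whereas on day 3 those of *Mir183* and *Mir96* overlap.

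*Dnmt1* KO and control cells on day 1 are described here without a test, since these values bear on how the cluster was chosen. *Mir183* was at 22917, 25855 and 31409 RPM in the controls and 14957, 17616 and 18926 RPM in *Dnmt1* KO cells, without overlap, and the fitted log2 difference was −0.72. *Mir96* was at 688, 754 and 851 RPM in the controls and 609, 677 and 662 RPM in *Dnmt1* KO cells, also without overlap, with a difference of −0.32. For *Mir182*, the most abundant member, the groups overlapped, at 131585, 139865 and 164649 RPM in the controls and 115721, 132185 and 126453 RPM in *Dnmt1* KO cells, with a difference of −0.31. Of all 2582 features with at least 10 RPM in 3 libraries, 4.65% were lower in *Dnmt1* KO cells on day 1 without overlap, a share that is printed beside these values and from which nothing is read. Libraries of a bulk sample cannot tell fewer cells of a type from less RNA per cell, on this and every later day.

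By day 3 the day 1 difference of *Mir183* was not seen. On day 3 *Mir183* was at 15277, 19564 and 19401 RPM in the controls and 15607, 19179 and 17005 RPM in *Dnmt1* KO cells, and the groups overlapped (log2 difference −0.04, SE 0.12, 95% interval −0.28 to 0.19, adjusted p = 0.889 by limma with Benjamini-Hochberg adjustment over all features). *Mir96* was at 681, 761 and 742 RPM in the controls and 1191, 838 and 694 RPM in *Dnmt1* KO cells, and *Dnmt1* KO replicate 1 was higher than every other library of the time course. Its log2 difference of 0.30 (SE 0.15) missed the threshold of 0.05 after adjustment (adjusted p = 0.261). *Mir182* was at 149399.9, 152470.0 and 163152 RPM in the controls and 132182, 138005 and 146017 RPM in *Dnmt1* KO cells, which did not overlap (13.3% of all features were lower in *Dnmt1* KO cells without overlap), but its log2 difference of −0.14 (SE 0.10, 95% interval −0.33 to 0.05) also missed the threshold (adjusted p = 0.483). By limma 0 of 3 members were called on day 3. Before adjustment 1 of 3, *Mir96*, was under 0.05, in the direction of a higher level. Of all features 6.24% were called on this day in either direction.

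From day 6 the members were lower in *Dnmt1* KO cells. On day 6 *Mir183* was at 22139, 23393 and 19649 RPM in the controls and 19292, 15752 and 15503 RPM in *Dnmt1* KO cells, with *Dnmt1* KO replicate 1 close to the lowest control. *Mir96* was at 718, 739 and 601 RPM in the controls and 523, 559 and 504 RPM in *Dnmt1* KO cells. *Mir182* was at 167535, 170192 and 156885 RPM in the controls and 132306, 113329.7 and 125642 RPM in *Dnmt1* KO cells. The 2 genotypes did not overlap for any of the 3 members, and 12.8% of all features had lower, non-overlapping values in *Dnmt1* KO cells. The log2 differences were −0.48 for *Mir183* (SE 0.12, adjusted p = 0.00219), −0.48 for *Mir96* (SE 0.15, adjusted p = 0.015) and −0.52 for *Mir182* (SE 0.10, adjusted p = 5.16e-05). Thus 3 of 3 members fell, to 0.719, 0.719 and 0.697 of the control level, beside 9.33% of all features and 69 of 287 miRNA features called lower. This background moved with the scaling, from 241 of 595 calls lower as fitted to 157 of 595 with library totals, 362 of 644 with median-ratio size factors and 369 of 649 with an unweighted trimmed mean. The call of *Mir96* was lost without control replicate 1 (log2 difference −0.43, adjusted p = 0.0643), with library totals as the only scaling (−0.37, adjusted p = 0.0631) and with the R1-suffixed libraries (−0.42, adjusted p = 0.0625).

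On day 9 *Mir183* was at 17757, 17385 and 17792 RPM in the controls and 12152, 11946 and 12208 RPM in *Dnmt1* KO cells. *Mir182* was at 165872, 174778 and 165668 RPM in the controls and 114703, 116536 and 116485 RPM in *Dnmt1* KO cells. *Mir96* was at 527, 399 and 505 RPM in the controls and 345, 325 and 359 RPM in *Dnmt1* KO cells, so that its lowest control, replicate 2, stood nearer to the *Dnmt1* KO libraries than to the other controls. No member overlapped between genotypes on day 9, nor did 22.8% of all features, counting those lower in *Dnmt1* KO cells. The log2 differences of *Mir183* and *Mir182* were −0.43 (SE 0.12, adjusted p = 0.00739) and −0.42 (SE 0.10, adjusted p = 0.000886). That of *Mir96*, −0.35 (SE 0.15, 95% interval −0.65 to −0.05), was not called (adjusted p = 0.103). Hence 2 of 3 members were called lower, where 6.12% of all features and 14.3% of miRNA features were.

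Day 11 gave a similar picture. *Mir183* was at 19114, 19502 and 18394 RPM in the controls and 13600.0, 14429 and 12783 RPM in *Dnmt1* KO cells. *Mir182* was at 178574, 209823 and 196028 RPM in the controls and 137994, 138760.0 and 136407 RPM in *Dnmt1* KO cells, the *Dnmt1* KO libraries lying within a narrow band and the controls higher than on any other day. *Mir96* was at 570.4, 492 and 566 RPM in the controls and 397, 383 and 353 RPM in *Dnmt1* KO cells. Again no member overlapped, as for 24.6% of all features lower in *Dnmt1* KO cells. The log2 differences were −0.40 for *Mir183* (SE 0.12, adjusted p = 0.0213), −0.41 for *Mir182* (SE 0.10, adjusted p = 0.00196) and −0.44 for *Mir96* (SE 0.15, 95% interval −0.74 to −0.14, adjusted p = 0.0593). The first 2 were called, beside 2.36% of all features and 4.18% of miRNA features called lower. Both calls rested on single libraries. Without *Dnmt1* KO replicate 3 the difference of *Mir183* was −0.29 (adjusted p = 0.311) and that of *Mir182* −0.34 (adjusted p = 0.0543), and without control replicate 1 or 2 that of *Mir183* was −0.40 (adjusted p = 0.0642) or −0.38 (adjusted p = 0.0797). With median-ratio size factors the call of *Mir183* was lost too (−0.34, adjusted p = 0.0666).

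On day 25 the levels of *Mir183* and *Mir182* were lower in both genotypes than on earlier days. *Mir183* was at 9857, 10914 and 10553 RPM in the controls and 6269.6, 6319 and 6169 RPM in *Dnmt1* KO cells. *Mir96* was at 513, 578 and 766 RPM in the controls and 445, 301 and 320.3 RPM in *Dnmt1* KO cells. *Mir182* was at 106869, 106294 and 107199 RPM in the controls and 88935, 78922 and 79772 RPM in *Dnmt1* KO cells. None of the 3 overlapped, as for 19.1% of all features lower in *Dnmt1* KO cells. *Mir183* fell by 0.63 on the log2 scale (SE 0.12, adjusted p = 4.81e-05) and *Mir96* by 0.69 (SE 0.15, adjusted p = 0.000302), to 0.647 and 0.620 of the control level. *Mir182* fell by 0.26 (SE 0.10, adjusted p = 0.0297), to 0.833 of the control level, and this call was lost without control replicate 3 (−0.25, adjusted p = 0.0651). Thus 3 of 3 members were called lower, beside 17.0% of all features and 37.6% of miRNA features. These libraries are the shallowest of the time course, and *Mir96* rests there on 169 to 625 reads per library.

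**Figure D2:**
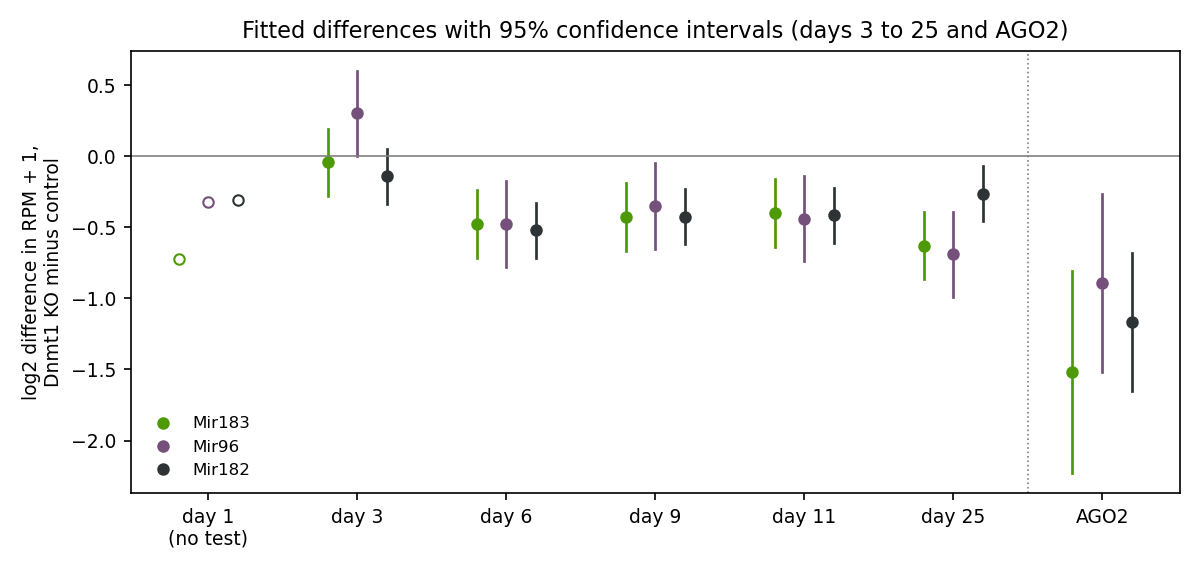
Fitted log2 difference in RPM + 1, *Dnmt1* KO minus control (vertical axis), for each member on each day and in AGO2 libraries (horizontal axis); points are estimates, bars 95% confidence intervals, and open points on day 1 have no interval because that day was not tested. The estimates lie between −0.69 and −0.26 on days 6 to 25, between −0.14 and 0.30 on day 3, and between −1.52 and −0.89 in AGO2 libraries.

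Averaged over days 3 to 25, whose libraries are all distinct from those of day 1, the 3 members were lower in *Dnmt1* KO cells. *Mir183* fell by 0.40 on the log2 scale (SE 0.05, adjusted p = 7.26e-08), *Mir182* fell by 0.35 (SE 0.04, adjusted p = 8.9e-09) and *Mir96* fell by 0.33 (SE 0.07, adjusted p = 0.000122). These correspond to 0.760, 0.783 and 0.796 of the control level. The 3 calls stand beside 12.4% of all features and 27.2% of miRNA features called lower, and the median difference over all features was 0.01. Each call held under every scaling, pseudocount and filter tried and without any single library.

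The differences between genotypes were then compared between days. For *Mir96* the difference on day 11 was lower than that on day 3 by 0.74 on the log2 scale (SE 0.21, adjusted p = 0.0288), a change called lower in 0.852% of all features. Without *Dnmt1* KO replicate 1 of day 3 the change was −0.50 (adjusted p = 0.199). Leaving out any of 5 further libraries also ended the call: −0.68 without day 3 control replicate 1 (adjusted p = 0.0906), −0.74 and −0.65 without day 11 *Dnmt1* KO replicate 2 or 3 (adjusted p = 0.0515 and 0.115), and −0.70 without day 11 control replicate 1 or 3 (adjusted p = 0.0750 and 0.0783). The change was −0.36 for *Mir183* (95% interval −0.69 to −0.02, adjusted p = 0.366) and −0.27 for *Mir182* (95% interval −0.55 to 0.00, adjusted p = 0.419). From day 3 to day 25 the difference of *Mir96* changed by −0.99 (SE 0.21, adjusted p = 0.000414) and that of *Mir183* by −0.58 (SE 0.17, adjusted p = 0.0079), and both calls held without any single library. In this contrast 23.5% of all features were called in either direction, and 292 of 2582 features and 32.8% of miRNA features were called lower. The difference of *Mir182* changed by −0.12 (95% interval −0.40 to 0.15, adjusted p = 0.549).

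The members were also compared between days within each genotype. In these contrasts day cannot be told apart from the library preparation of that day, and the day 25 libraries were the shallowest. In controls *Mir182* rose from day 3 to day 11 by 0.37 on the log2 scale (SE 0.10, adjusted p = 0.00577), beside 5.34% of all features called higher. *Mir183* differed by 0.12 (adjusted p = 0.56) and *Mir96* by −0.38 (adjusted p = 0.0788) over the same days. In *Dnmt1* KO cells *Mir183* and *Mir182* differed by −0.23 (adjusted p = 0.202) and 0.10 (adjusted p = 0.62) over these days, and *Mir96* fell, with a log2 difference of −1.12 (SE 0.15, adjusted p = 1.22e-07), beside 9.26% of all features called lower. From day 11 to day 25 *Mir183* and *Mir182* fell in both genotypes, with log2 differences of −0.99 and −0.99 in controls (adjusted p = 2.27e-09 and 1.38e-11) and of −1.21 and −0.83 in *Dnmt1* KO cells (adjusted p = 1.86e-11 and 1.34e-09). *Mir96* differed over these days by 0.05 in controls (95% interval −0.25 to 0.35) and −0.20 in *Dnmt1* KO cells (95% interval −0.50 to 0.10), neither of them called. These contrasts called 33.8% of all features lower in controls and 26.3% in *Dnmt1* KO cells.

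In order of mean level, the 12 groups were spread over a range of 6252 to 26727 RPM for *Mir183*, 343 to 908 RPM for *Mir96* and 82543 to 194809 RPM for *Mir182*. The highest mean was that of day 1 controls for *Mir183*, of day 3 *Dnmt1* KO cells for *Mir96* and of day 11 controls for *Mir182*. The lowest was that of day 25 *Dnmt1* KO cells for *Mir183* and *Mir182* and of day 9 *Dnmt1* KO cells for *Mir96*. For *Mir183* neighbouring groups from rank 3 down to rank 8, among them the day 3 groups of both genotypes, overlapped with each other. For *Mir96* only 1 step of the order, from day 9 controls down to day 11 *Dnmt1* KO cells, had no overlap. For *Mir182* the day 11 controls stood apart from the group ranked second, and both day 25 groups stood apart below all others.

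Ratios between members within a library do not depend on how libraries are scaled to each other, and were used to ask if the members moved by the same factor. Over days 3 to 25 the log2 RPKM ratio of *Mir183* to *Mir182* differed between genotypes by −0.04 (permutation test within days, two-sided, p = 0.390, adjusted over 3 ratios p = 0.718). That of *Mir96* to *Mir182* differed by 0.02 (permutation p = 0.823 before and after adjustment) and that of *Mir183* to *Mir96* by −0.06 (permutation p = 0.478, adjusted p = 0.718). Single days were less even. On day 25 the ratio of *Mir183* to *Mir182* was −3.26 ± 0.08 (SD, n = 3) in controls and −3.62 ± 0.09 in *Dnmt1* KO cells, without overlap, and on day 1 it was −2.35 ± 0.07 and −2.77 ± 0.11, also without overlap. On days 3, 6, 9 and 11 the differences in this ratio were 0.10, 0.05, −0.002 and 0.01, and the groups overlapped. The averages of the other 2 ratios combine days that differed in sign. That of *Mir96* to *Mir182* differed by 0.44 on day 3 and −0.43 on day 25, and that of *Mir183* to *Mir96* by −0.35 on day 3 and 0.06 on day 25, with overlap between the genotypes in all 4 cases. With 3 libraries against 3, an exact test of a single day could not go below p = 0.1, so the days were not tested one by one. The group means of the ratio of *Mir96* to *Mir182* ran from −7.79 in day 3 *Dnmt1* KO cells to −9.01 in day 11 *Dnmt1* KO cells.

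**Figure D3:**
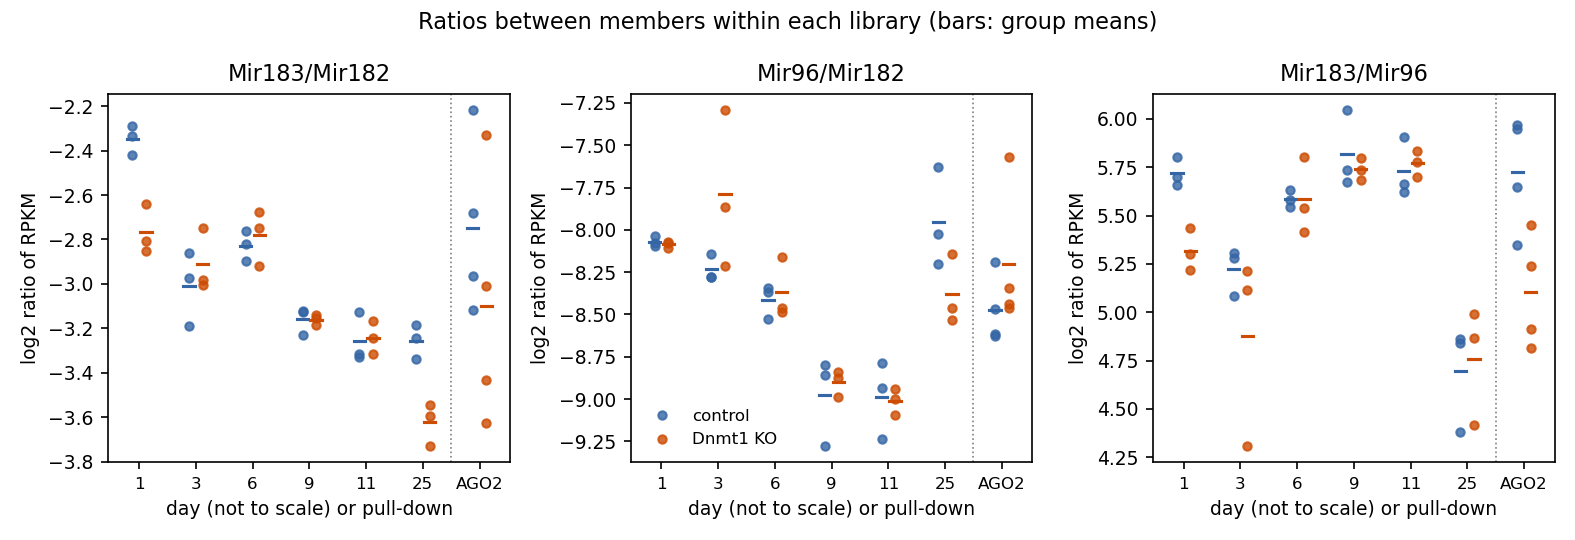
Log2 ratio of RPKM between 2 members within each library (vertical axes, not starting at 0) by day (evenly spaced) and in AGO2 libraries (horizontal axes); points are libraries and bars the group means. The genotypes do not overlap for *Mir183* to *Mir182* on days 1 and 25 and for *Mir183* to *Mir96* on day 1, and overlap elsewhere.

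Markers of other cells also differed between genotypes, not always on the same days as the cluster, and their part in its differences was not tested. The fibroblast list (*Mir143*, *Mir145*, *Mir199a-1*, *Mir199a-2* and *Mir214*, miRNAs of mesenchymal cells such as feeder fibroblasts) had 4 of 5 members tested, and 4 of 4 were called higher in *Dnmt1* KO cells over days 3 to 25, with a median log2 difference of 0.64, beside 17.4% of all features called higher. *Mir214* and *Mir143* changed most, by 0.73 (adjusted p = 2.47e-07) and 0.64 (adjusted p = 4.47e-15). The summed level of the list in controls and *Dnmt1* KO cells was 10331 to 10698 and 15501 to 17839 RPM on day 3, when no member of the cluster was called. It was 6132 to 7144 and 11242 to 12515 RPM on day 6, 10984 to 14913 and 20919 to 22910 RPM on day 9, and 10596 to 11209 and 12417 to 14632 RPM on day 11. On day 25 it was only 954 to 1049.6 and 1247 to 1292 RPM, and *Mir183* differed by −0.63. On that day 3 of 4 members of the list were called higher and *Mir145* lower (log2 difference −0.41). Of all features 18.0% were called higher and 17.0% lower on day 25. *Mir199a-1*, the member that did not pass the filter, was at 0 in all 36 libraries. *Mir199a-2* was at 7.37 to 41.1 RPM on days 1 to 11 and at 0 to 1.61 RPM on day 25. The sources used here do not say how reads that map to more than 1 gene were assigned. The 0 of *Mir199a-1* is therefore not read as absence of its miRNA. The study states that ESCs were cultured with or without feeders, and the sources used here do not tie either to a library.

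The let-7 list, miRNAs that rise as cells differentiate, had 6 of 12 members tested, and 6 of 6 were called higher over days 3 to 25 (median log2 difference 0.38), beside 17.4% of all features called higher and 12.4% called lower in this average. *Mirlet7g* and *Mirlet7f-2* changed most, by 0.64 (adjusted p = 0.000221) and 0.46 (adjusted p = 5.72e-05). Its summed level on day 9 was 1541 to 1988 RPM in controls and 2608 to 3012 RPM in *Dnmt1* KO cells, and on day 25 it was 65.0 to 113 and 64.4 to 78.8 RPM. On day 25 alone 1 of the 6 was called higher (*Mirlet7g* at 1.40) and 2 were called lower, *Mirlet7i* at −1.30 and *Mir98* at −0.74, the latter 2 named after their values were seen. The day 25 calls over all 2582 features were 464 higher and 440 lower. Of the epithelial list, the miR-200 family with *Mir203* and *Mir205*, 5 of 7 members were called lower and 1 higher averaged over days 3 to 25 (median −0.27), with *Mir200c* and *Mir141* at −0.70 (adjusted p = 3.44e-07) and −0.54 (adjusted p = 1.51e-07). The days differed in direction. On day 3, 2 of the 7 were called higher (median 0.39), beside 4.49% of all features. On day 25, 6 were called lower and 1 higher (median −1.26), beside 17.0% of all features and 37.6% of miRNA features called lower and 18.0% of all features called higher. Of the ESC list 6 of 12 were called lower and 1 higher in the average (median −0.13), with *Mir302c* and *Mir302b* at −1.12 (adjusted p = 9.86e-09) and −1.09 (adjusted p = 6.53e-17). The 6 called lower were the 5 members of the miR-302/367 group and *Mir291a* at −0.11 (adjusted p = 0.043), and of the other members of the miR-290 to miR-295 group *Mir293* was higher by 0.18 (adjusted p = 0.00344) and the remaining 5 were not called. The listed miRNA features of sensory and neural cells, among which this cluster is often counted, had few reads. Their list of 8, of which 5 are in the table, summed to 3.68 to 36.01 RPM over the time course, and its 2 tested members, *Mir204* and *Mir211*, were higher by 0.68 (adjusted p = 0.000176) and 0.50 (adjusted p = 0.0161). In the same libraries the cluster summed to 85542 to 229816 RPM. All of these lists were chosen with earlier results known.

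On chromosome 6 the table holds 55 other features within 1 Mb of the cluster, of which 6 passed the filter. Averaged over days 3 to 25, 0 of these 6 were called lower and 4 higher by limma, beside 17.4% of all features called higher and 12.4% lower, whereas the members of the cluster were called lower. Before adjustment 0 of the 6 passed 0.05 in the lower direction. *Calu*, which encodes a calcium-binding protein of the secretory pathway, was higher by 0.47 on the log2 scale (SE 0.12, adjusted p = 0.00165). *Mest*, an imprinted gene, and *Mir335*, which lies within it, were higher by 0.45 each (SE 0.04, adjusted p = 3.96e-12 and 4.30e-12) and share their reads. Their difference was largest on day 11, at 1.09 for both, and was 0.17 for both on day 25. On day 25, in contrast, 2 of the 6 were called lower, beside 17.0% of all features. They were *Mir29a* at −0.62 (adjusted p = 3.75e-06) and *Tnpo3* at −0.52 (adjusted p = 0.0416), named here after their values were seen.

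In the AGO2 pull-down the cluster made up 30.9% ± 5.6 (SD, n = 4) of the total in control libraries and 16.1% ± 2.6 in *Dnmt1* KO libraries. These shares do not compare directly with the time course, where miRNA features held less of the total. Of the reads on miRNA features, the cluster made up 24.9% to 38.3% in AGO2 controls and 13.6% to 19.7% in AGO2 *Dnmt1* KO libraries. On day 9 of the time course it made up 31.8% to 33.5% of them in controls and 21.6% to 22.5% in *Dnmt1* KO cells. *Mir183* was at 30460.5, 41043, 47935 and 31356 RPM in controls and at 15195, 9357, 26211 and 15337 RPM in *Dnmt1* KO cells. *Mir182* was at 254931, 204707, 329658 and 291769 RPM in controls and at 131259, 123691, 141391 and 177275 RPM in *Dnmt1* KO cells. *Mir96* was at 919.5, 992, 1177 and 1166 RPM in controls and at 527, 503, 1052 and 771 RPM in *Dnmt1* KO cells. The groups did not overlap for *Mir183* and *Mir182*, as for 5.92% of the 456 features tested that were lower in *Dnmt1* KO cells, whereas *Dnmt1* KO replicate 3 put *Mir96* within the control range.

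The fitted log2 difference was −1.52 for *Mir183* (SE 0.31, adjusted p = 0.00498 by limma), −1.16 for *Mir182* (SE 0.21, adjusted p = 0.00259) and −0.89 for *Mir96* (SE 0.28, adjusted p = 0.0339). Hence the members were at 0.349, 0.446 and 0.539 of the control level, and 3 of 3 were called lower, beside 11.6% of all features and 13.0% of miRNA features. The series' design text names 2 samples with 2 biological replicates, and the labels do not tie the 4 libraries of a genotype to cultures. With replicates 1 and 2 averaged, and 3 and 4 averaged, every call was lost, at log2 differences of −1.57 (adjusted p = 0.0577), −1.24 (adjusted p = 0.0618) and −0.96 (adjusted p = 0.261) for *Mir183*, *Mir182* and *Mir96*. The call of *Mir96* was also lost with library totals as the only scaling (−0.63, adjusted p = 0.0857). It was lost without *Dnmt1* KO replicate 1 (−0.82, adjusted p = 0.0861) or 2 (−0.81, adjusted p = 0.0898) and without control replicate 1 (−0.96, adjusted p = 0.0514), 3 (−0.79, adjusted p = 0.0976) or 4 (−0.85, adjusted p = 0.0809). Without the filter, which raises the number of features tested to 16650, the differences were −2.43, −2.07 and −1.80 for *Mir183*, *Mir182* and *Mir96*. The scaling matters in this set, because the median over all features was 0.10 as fitted and 0.34 with library totals.

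Ratios between members were compared in the pull-down too. The log2 ratio of *Mir183* to *Mir96* was 5.73 ± 0.29 (SD, n = 4) in controls and 5.10 ± 0.29 in *Dnmt1* KO cells, a difference of −0.62 (exact permutation test, two-sided, p = 0.0571, adjusted over 3 ratios p = 0.171). The ratio of *Mir183* to *Mir182* differed by −0.35 (exact p = 0.314) and that of *Mir96* to *Mir182* by 0.27 (exact p = 0.286), both with an adjusted p = 0.314. The smallest p that 4 libraries against 4 can give is 0.0286. In the same libraries the fibroblast list summed to 1336 to 1831 RPM in controls and 3698 to 4367 RPM in *Dnmt1* KO cells, nearly all of it *Mir143*, at 1307 to 1811 RPM in controls and 3651 to 4325 RPM in *Dnmt1* KO cells, and *Mir199a-1* was at 0 in all 8. The part of this difference in the cluster's values was not tested. AGO2 groups were taken from the titles, and the genotype tags of these libraries name the opposite genotype, under which every AGO2 difference given here would change sign. In the time course titles and tags name the same genotype. There *Mir143* was higher in *Dnmt1* KO cells without overlap on days 3, 6, 9, 11 and 25. On these days 26.3% to 44.9% of all features had no overlap, in either direction. On day 1 *Mir143* overlapped, at 8944 to 11098.5 RPM in controls and 9282 to 10789 RPM in *Dnmt1* KO cells. Which of title and tag is right for the AGO2 libraries was not tested.

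Each "none" and PGC library was a single sample without a replicate, and their values are given with 95% Wilson intervals that cover counting error only. In the "none" libraries the cluster held 23.5% (interval 23.1% to 23.8%) of 57155 reads in the control and 7.53% (7.02% to 8.07%) of 9830 reads in the *Dnmt1* KO library. *Mir182* took 21.1% and 6.98% of the total in them, and *Mir96* rested on 32 reads and 1 read. Of the reads on miRNA features the cluster made up 27.9% in the control and 16.4% in the *Dnmt1* KO library. The labels do not explain "none", and a negative control of beads and extract with no serum appears in the methods of the study. These libraries were far shallower than the AGO2 libraries. Their genotypes were taken from the titles, which their genotype tags contradict, as for the AGO2 libraries. Which of title and tag is right was not tested here either.

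In PGCs without the suffix the cluster held 9.56% (9.53% to 9.60%) of the total at E13.5 in the female and 16.3% (16.2% to 16.3%) in the male library, and 11.08% (11.05% to 11.11%) and 11.96% (11.91% to 12.01%) at E14.5 in the female and male library. *Mir182* was at 88924, 149577, 99942 and 107446 RPM in this order. *Mir183* was at 6599.97, 13106, 10715 and 11973 RPM, and *Mir96* was at 98.4, 276, 144 and 152 RPM. These 4 values of *Mir96* lie below those of all 36 ESC libraries of the time course. The log2 ratio of *Mir96* to *Mir182* was −10.3, −9.58, −9.93 and −9.96 in PGCs, lower than the mean of any group of the time course. *Mir182* was the top miRNA by RPKM in 3 of these 4 libraries and second in the female one of E13.5. Of the R1-suffixed PGC libraries, the 2 of E13.5 had totals of 114631 and 60317 reads and only 0.662% and 0.131% of them on the cluster. *Mir96* had 0 of 114631 reads in the female one, which allows a share of up to 0.00262%, taking 3 counts as the limit of a count of 0 rather than a Wilson bound. Of the features with reads in this library, 94.0% had an even number of them. Its reads may therefore be counted in pairs, and this limit may be too low. The suffixed male library of E14.5 held 16.4% on the cluster.

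**Figure D4:**
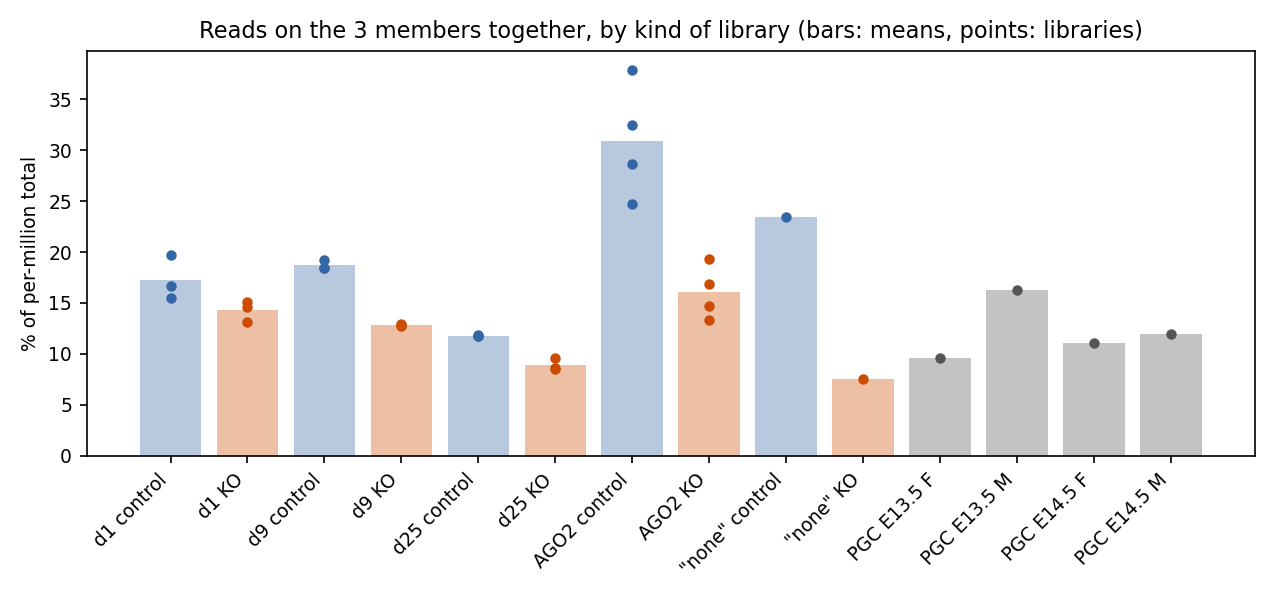
Share of the library total on the 3 members together (vertical axis, percent, from 0) in 6 groups of the time course and in the AGO2, "none" and unsuffixed PGC libraries (horizontal axis); bars are means and points libraries, with 3 per time course group, 4 per AGO2 group and 1 for each other bar. The share is highest in AGO2 control libraries, with a mean of 30.9%, and lowest in the "none" *Dnmt1* KO library, with 7.53%. Kinds of library differ in how much of the total lies on miRNA features, so bars of different kinds do not compare directly. Genotypes of the AGO2 and "none" libraries follow the titles.

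The features outside the cluster whose level followed it best over the 12 group means of the time course were *Mir450b* on the X chromosome (Pearson's r = 0.953 with the mean log2 level of the 3 members), *Eml2* (r = 0.951) and *Mir330* (r = 0.951) on chromosome 7, and *Zranb2* (r = 0.920) and *Mir186* (r = 0.920) on chromosome 3. *Mir330* lies within *Eml2* and *Mir186* within *Zranb2*, and each pair had nearly the same levels, so they stand for 3 loci rather than 5. Over the single libraries of the time course, levels ran from 28.4 to 176 RPM for *Mir330*, 73.9 to 553 RPM for *Mir450b* and 900.4 to 3909 RPM for *Mir186*. Of the members themselves, *Mir183* had r = 0.970 with the mean of the 3, *Mir182* r = 0.838 and *Mir96* r = 0.790. Between members, r over the group means was 0.834 for *Mir183* and *Mir182*, 0.670 for *Mir183* and *Mir96* and 0.377 for *Mir96* and *Mir182*. These correlations are a description over 12 points, of which each pair of genotypes shares a day.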

How the data were processed

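Small RNA of ESCs, AGO2 pull-downs and PGCs was sequenced (83 libraries). The authors trimmed reads with Trim Galore 0.3.5, kept those of 20 to 24 bases, mapped them to NCBIM37 with Bowtie2 2.2.9 and counted them per gene in SeqMonk. The use of strand is not given in the sources used here. The values the authors deposited are RPKM per gene span. Each RPKM was multiplied by the span in kilobases to give RPM. Low RPM values were whole multiples of 1 step (within 5% of the step), from which library totals and reads per feature were recovered. Groups followed the titles; genotype tags contradict them in the R1-suffixed libraries of days 1 to 9 and in the AGO2 and "none" libraries, and PGC libraries are tagged as ESCs. Libraries with the suffix R1 were used as an alternative only. Their values could follow those of the unsuffixed libraries number by number. In day 1 controls the cluster held 15.5%, 16.6% and 19.7% of the total without the suffix and 15.5%, 16.5% and 19.9% with it. In day 6 controls it held 19.0%, 19.4% and 17.7% without the suffix and 19.3%, 19.6% and 17.9% with it. The log2 ratio of *Mir96* to *Mir182* in day 3 *Dnmt1* KO replicate 1 was −7.29 without and −7.26 with the suffix. This alternative is therefore not taken as an independent replication.

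Features with at least 10 RPM in at least 3 libraries of a fit were tested (2582 in the time course, 456 in AGO2) on log2(RPM + 1) with limma 3.58.1 (trend; R 4.3.3) after scaling by a trimmed mean of M values weighted by reads (30% of log ratios and 5% of levels trimmed), and adjusted over all features by Benjamini-Hochberg with a threshold of 0.05. A fold on this scale understates changes of low features. The time course was a single fit with 1 mean per day and genotype, and AGO2 a separate fit. Ratios were tested by permutation (100000 within days, exact in AGO2). Of these tests, only the limma contrasts of day 9 and AGO2 were tried on simulated data, and the permutation tests were not. The simulated libraries were independent and had the same spread for all features. They therefore do not vouch for the p-values where libraries are not independent. All 78 pairs of replicates differed by more than counting noise (chi-square per degree of freedom 2.15 or more). Same-numbered libraries did not deviate together in the time course, but did in AGO2 (r 0.19 to 0.39 in 4 of 4 pairs). Blocking on the number changed no call there. In AGO2, r between genotypes was positive within replicates 1 and 2 and within 3 and 4 (0.19 to 0.39). It was negative across these 2 sets (−0.46 to −0.06). The 4 libraries of a genotype may thus not be independent, and p-values that treat them so may be too small. The named features were the members, the 5 features most like them, up to 3 called neighbours and up to 2 called features per list, by largest mean change. The members and lists were chosen with earlier results of these data known. Alternatives were scaling, pseudocount, filter, miRNA features only, days fitted alone, replicate block, averaged AGO2 libraries, R1-suffixed libraries and leaving out each library.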

Additional observations from a re-analysis of the deposited data

Results flagged for a closer look

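In AGO2 *Dnmt1* KO cells, replicate 3 had a log2 RPKM ratio of *Mir96* to *Mir182* of −7.57, whereas the other 3 libraries lay close together between −8.46 and −8.34, so that its gap took up most of the range of the group. Of the 12 sets of 4 AGO2 values looked at in this way (3 levels and 3 ratios in each genotype), this was the only one past the 95% critical value of Dixon's test, and chance alone passes it in about 1 in 20 sets.

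The genotype difference itself changed between days in 3 cases. For *Mir96* it was lower on day 11 than on day 3 by −0.74 (log2, adjusted p = 0.0288 by limma) and lower on day 25 than on day 3 by −0.99 (adjusted p = 0.000414). For *Mir183* it was lower on day 25 than on day 3 by −0.58 (adjusted p = 0.0079).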

How the results depend on the processing

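The lower level of all 3 members averaged over days 3 to 25 kept its direction and its call under every alternative run, with log2 differences of −0.44 to −0.38 for *Mir183*, −0.42 to −0.30 for *Mir96* and −0.39 to −0.33 for *Mir182* when single libraries were left out. Counts of features called on single days were less stable: without the filter 67 rather than 161 features passed on day 3, 291 rather than 475 on day 9 and 329 rather than 166 in AGO2 libraries, while with each day fitted alone 714 passed on day 9, 422 rather than 223 on day 11 and 390 rather than 904 on day 25. With library totals 157 of 595 calls on day 6 were lower rather than 241 of 595 (362 of 644 with median-ratio size factors, 369 of 649 with an unweighted trimmed mean), 248 of 490 rather than 158 of 475 on day 9, 574 of 939 rather than 440 of 904 on day 25 and 21 of 158 rather than 53 of 166 in AGO2 libraries. The cause of the changes below was not tested.

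With library totals, *Mir96* lost its call on day 6 (−0.37) and in AGO2 libraries (−0.63) and gained one on day 9 (−0.47), on day 11 (−0.52) and for control day 11 minus day 3 (−0.43). Under the same scaling *Mir183* gained a call for *Dnmt1* KO day 11 minus day 3 (−0.34), and *Mir182* turned to −0.00942 there. With median-ratio size factors *Mir183* lost its day 11 call (−0.34) and *Mir96* gained one for control day 25 minus day 3 (−0.34). With a pseudocount of 5 *Mir96* gained calls on day 11 (−0.43) and for control day 25 minus day 3 (−0.33). Without the filter, which raises the number of features tested to 24119, calls were lost for *Mir96* on day 6 (−0.53), *Mir183* on days 9 (−0.44) and 11 (−0.35), *Mir182* on days 11 (−0.37) and 25 (−0.30), the change of the *Mir96* difference from day 3 to day 11 (−0.65), that of *Mir183* from day 3 to day 25 (−0.58) and *Mir182* in control day 11 minus day 3 (0.28). There *Mir96* gained calls for control day 25 minus day 3 (−0.82) and *Dnmt1* KO day 25 minus day 11 (−0.68) and turned to −0.34 for control day 25 minus day 11. *Mir96* also gained a call on day 11 with miRNA features only (−0.44), on day 9 with an unweighted trimmed mean (−0.41, an alternative chosen after seeing the data), and on days 9 (−0.38) and 11 (−0.42) with each day fitted alone. With R1-suffixed libraries, where day 25 was taken from libraries without the suffix, *Mir96* lost its day 6 call (−0.42), gained calls on day 9 (−0.49) and for control day 25 minus day 3 (−0.41) and turned to −0.00588 for control day 25 minus day 11, and the difference in the ratio of *Mir96* to *Mir182* turned to −0.00916. With averaged AGO2 libraries the 3 members lost their calls (*Mir183* −1.57, *Mir96* −0.96, *Mir182* −1.24).

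Leaving out single libraries changed a call or a sign for *Mir183* on day 3 (−0.17 to 0.027), on day 11 (−0.44 to −0.29) and for control day 11 minus day 3 (−0.0055 to 0.19), which turned without day 3 control replicate 1. It did so for *Mir182* on day 11 (−0.48 to −0.34) and day 25 (−0.31 to −0.25). For *Mir96* it did so on day 6 (−0.60 to −0.43), in AGO2 libraries (−1.18 to −0.79), for the change of the difference from day 3 to day 11 (−0.91 to −0.50), and, through day 25 control replicate 3, for control day 25 minus day 3 (−0.50 to −0.17) and minus day 11 (−0.083 to 0.29). The difference in the ratio of *Mir96* to *Mir182* over days 3 to 25 was −0.027 to 0.065.

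With the replicate number as a block (replicate block), *Mir183* averaged over days 3 to 25 was at −0.40 (adjusted p = 6.98e-09 by limma) and in AGO2 libraries at −1.52 (adjusted p = 0.00125), and the block changed no call. In the time course same-numbered libraries correlated by −0.07 to 0.05 in 18 pairs, with 0 over 0.1, and share only a number.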
